A study of Mus musculus with 22 samples.

Results

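The transcripts of 10 heat shock genes were followed in mouse embryonic stem cells exposed to compounds that act on chromatin. The genes were Hspa1a, Hspa1b, Hspa8, Hsph1, Dnajb1, Hsp90aa1, Hspb1, Hspd1, Hspe1 and Bag3, taken by name from a table of 18487 genes, and all 10 were among the 17275 genes that passed the filter on low values and were tested. They had been chosen as cytosolic heat shock genes, but the products of Hspd1 and Hspe1 form the chaperonin of the mitochondrial matrix, so 8 of the 10 act mainly in the cytosol and nucleus. Poly(A)-enriched RNA was sequenced from the E14 line, a long-established line of mouse embryonic stem cells, in 22 libraries that form 11 groups of 2. The study's methods describe growth of its stem cells in serum with LIF, a cytokine that holds them in the undifferentiated state, and do not mention the compounds.

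A group labelled NC, whose label names no compound, served as the reference, and each of the other groups received 1 compound. Valproate blocks histone deacetylases. Garcinol and CPTH2 block histone acetyltransferases, Bromosporine occupies the bromodomains that read acetylated lysine, and IOX1 blocks oxygenases that include many histone demethylases. DZNep inhibits S-adenosylhomocysteine hydrolase and thereby many methylation reactions, MS023 inhibits type I arginine methyltransferases, UNC0379 inhibits the methyltransferase SETD8, and Chaetocin inhibits lysine methyltransferases and is also reactive towards thiols. OICR is spelled as in the label, which gives no full compound name. No dose or exposure time was given for any group, all cells were of the 1 line E14, and nothing said whether the libraries of a group came from separate cultures, so that p-values measure only the spread between these libraries.

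Heat shock proteins are chaperones that bind unfolded proteins, keep them from aggregating and help them to fold. Their genes are controlled by the transcription factor HSF1, which is held inactive by chaperones and is released when unfolded proteins accumulate, after which it binds heat shock elements built from inverted repeats of the unit GAA and its complement TTC. Members of the HSP70 family work in cycles of ATP hydrolysis, started by J-domain partners and ended by nucleotide exchange factors, and hand many clients on to HSP90. Stem cells of the early embryo carry much of this machinery without stress, and an inducible HSP70 gene is among the earliest to be transcribed in the mouse embryo.

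Promoter sequences are shown because heat shock elements are the sites through which HSF1 is known to act on such genes. Windows of 300 bases around annotated gene starts (250 bases before the start, RefSeq, GRCm38.p6) were searched on both strands for GAANNTTC or TTCNNGAA, called here a 2-unit match, and for GAANNTTCNNGAA or TTCNNGAANNTTC, a 3-unit match, which always contains 2-unit matches. A window was found for 8 of the 10 genes, not for Hspa8 and Hsp90aa1. These genes had 11 windows, of which 8 held a 2-unit match and 4 (of Hspd1, Hspe1 and Hsph1) a 3-unit match. Among all 32851 windows 15.1% held a 2-unit and 0.603% a 3-unit match. The windows of the genes are not all separate sequences. Those of Hsph1 overlap and hold the same matches, and the Hspe1 window shares its matches with an Hspd1 window. Both windows of Dnajb1 lacked these letters. A match is a description of the sequence and does not show that a factor binds there. In the sequences below, read 5′ to 3′ on the strand of the gene, capitals mark the matched stretch.
Hspe1, chr1:55088053-55088082, plus strand: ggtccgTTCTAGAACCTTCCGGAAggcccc
Hspd1, chr1:55088053-55088082, minus strand: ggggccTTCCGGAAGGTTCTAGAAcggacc
Hsph1, chr5:149636351-149636380, minus strand: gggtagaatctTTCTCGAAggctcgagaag
Hspb1, chr5:135887802-135887849, plus strand: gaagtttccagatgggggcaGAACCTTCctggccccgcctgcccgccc
Hspa1a, chr17:34972233-34972280, minus strand: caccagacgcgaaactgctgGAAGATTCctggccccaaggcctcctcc
Hspa1b, chr17:34959315-34959362, minus strand: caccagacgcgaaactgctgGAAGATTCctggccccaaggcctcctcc

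The first pair of lines is 1 stretch of DNA read on both strands. Hspd1 and Hspe1 lie head to head on chromosome 1, and the stretch runs from base -89 to base -72 of the Hspe1 window and from -144 to -127 of an Hspd1 window, inside the first exon of another annotated Hspd1 transcript. It holds 2 overlapping 3-unit matches. Hspa1a and Hspa1b, neighbours on chromosome 17, showed the same 48 bases at the same distance, with the match at bases -104 to -97 before either start. The 3-unit match of Hsph1 lay after its annotated starts, within its exon. Hspb1 had a further 2-unit match at bases -117 to -110, whose letters open its line in lower case, and Bag3 had 1 at bases 42 to 49 after its start.

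Values are normalised read counts per gene, rounded to whole numbers by the authors after all libraries had been brought to 1 distribution. The median was 409 and the largest value 221616, totals of 38403767 to 38419709 no longer show depth, and the depth of each library is unknown. The values are not divided by transcript length, so levels are compared between groups and not between genes. Stem cell markers were abundant throughout, with Pou5f1 at 25663 to 39262 and Nanog at 31970 to 123367, and the sum of 6 such markers ranged from 127927 to 239271. The sum of 6 fibroblast markers ranged from 12 to 1247, with Dcn at 0 in all 22 libraries, and that of the 3 endoderm markers in the table (Gata4, Gata6 and Sox17) from 159 to 508.

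Changes of the heat shock genes with a compound were no more frequent than those of all tested genes. The 3 with the lowest limma adjusted p were rises by less than 2-fold, of Hspa1a and Dnajb1 with DZNep and of Hspa1a with MS023. A call needed a fold change over 2 and a Benjamini-Hochberg adjusted p under 0.05 in limma. Of the 100 pairs of a gene and a compound 0 were called, where 2.15% of all pairs of a tested gene and a compound were. By the adjusted p alone the 3 pairs named above passed, all higher than in NC, against 4.23% of all pairs. At an unadjusted p under 0.05 there were 7 pairs, or 7%, against 13.2% of all pairs. A change in log2 units is meant throughout as the difference of mean log2(value + 1), compound minus NC, and all 10 comparisons share the same 2 NC libraries.

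Hspa1a, an intronless gene for the stress-inducible HSP70 protein (ENSMUSG00000091971, chr17:34969190-34972156, minus strand, mm10), stood at 245 and 275 in the NC libraries. The DZNep libraries held 392 and 432 and the MS023 libraries 427 and 384. These 4 libraries were the highest of all, since the next value was 327 in an IOX1 library and the lowest was 215 with UNC0379. The change was 0.66 (SE 0.15, 95% interval 0.34 to 0.99) with DZNep, a 1.58-fold rise with a limma adjusted p of 0.00647. In that comparison 10.7% of all tested genes were higher at this adjusted p. With MS023 the change was 0.64 (SE 0.15, 95% interval 0.31 to 0.97, limma adjusted p 0.0465), where 0.863% of tested genes were higher at this adjusted p. Set against each other, the DZNep and MS023 levels of Hspa1a did not differ beyond their spread, with a difference of 0.02 (95% interval -0.30 to 0.35, limma adjusted p 0.94). Without NC replicate 1 the limma adjusted p was 0.0683 with DZNep, and the MS023 difference missed the threshold without any 1 of its 4 libraries (0.107 to 0.299). The Chaetocin libraries (313 and 319) and the IOX1 libraries (280 and 327) also lay above both NC libraries, with changes of 0.28 and 0.22 and unadjusted limma p of 0.0845 and 0.169.

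Hspa1b encodes the same protein from a neighbouring gene (ENSMUSG00000090877, chr17:34956436-34959238, minus strand). It was at 416 and 570 in NC, and its highest value was 791, in a Valproate library whose partner stood at 640. The change with Valproate was 0.55 (SE 0.18, 95% interval 0.16 to 0.93) and missed the threshold at a limma adjusted p of 0.0706. When 1 of its 4 libraries was left out, this change ran from 0.32 without NC replicate 1 to 0.77 without NC replicate 2. The DZNep libraries, with 659 and 588, and the MS023 libraries, with 621 and 597, were all above both NC libraries, with changes of 0.35 and 0.32 and limma adjusted p of 0.17 and 0.444.

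The transcripts of both genes share long stretches, so that the assignment of some reads to one or the other is uncertain. Of the 31-base stretches of the longest Hspa1a transcript 63.8% occur in Hspa1b, and 67.6% the other way round. Summed over both genes, the NC libraries held 661 and 845, the DZNep libraries 1051 and 1020, the MS023 libraries 1048 and 981 and the Valproate libraries 891 and 1062. The sum rose by 0.47 with DZNep (SE 0.15, limma adjusted p 0.0336). With MS023 it was 0.44 higher (limma adjusted p 0.161) and with Valproate 0.38 higher (limma adjusted p 0.127), neither past the threshold. Hspa1a made up 28.2% and 25.5% of the sum with Valproate and 37.1% and 32.5% in NC. Its share was 40.7% and 39.1% with MS023, 37.3% and 42.35% with DZNep, and 41.7% and 36.1% with Chaetocin. Gm20481, a gene on the opposite strand, overlaps the exon of Hspa1a, and whether reads were counted by strand was not given in the sources used here.

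**Figure D1:**
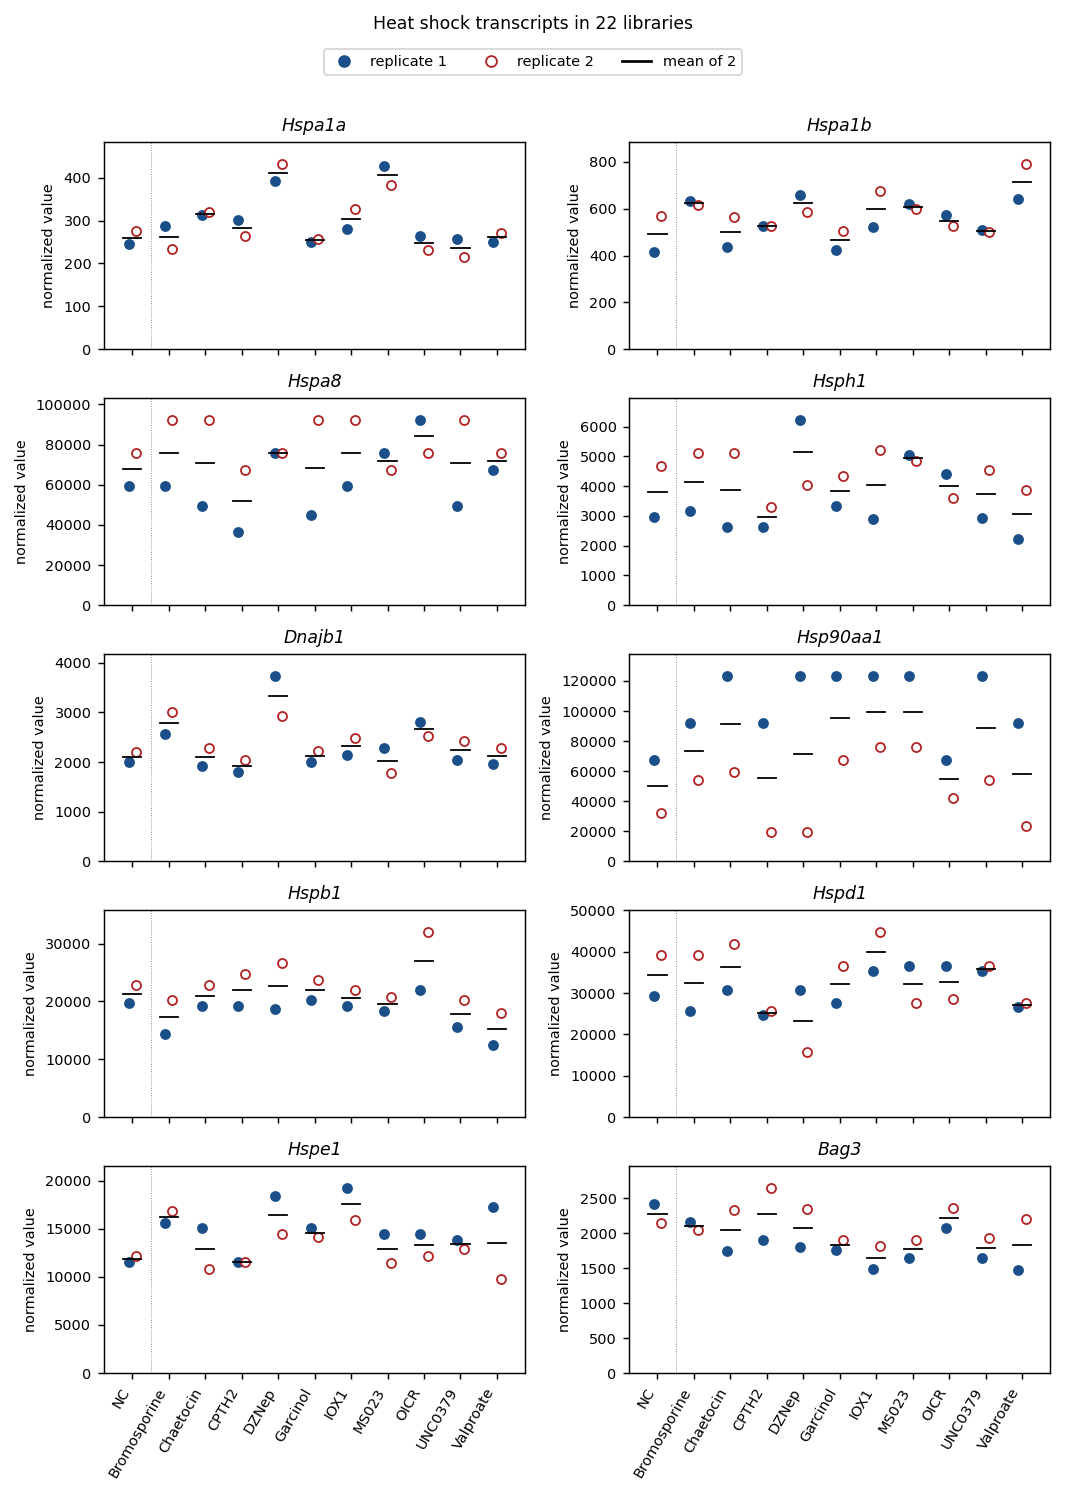
Normalised values (linear axes from 0) of the 10 heat shock genes in each of the 22 libraries, by group, with replicate 1 as filled circles, replicate 2 as open circles and the mean of both as a bar. The DZNep and MS023 libraries were the 4 highest for Hspa1a (384 to 432), and Hsp90aa1 was lower in replicate 2 than in replicate 1 of every group.

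Dnajb1 encodes an HSP40 protein, a J-domain partner that starts the ATP hydrolysis of HSP70 (ENSMUSG00000005483, chr8:83608193-83612653, plus strand). NC libraries held 1997 and 2212, and DZNep libraries 3738 and 2924. The change of 0.65 (SE 0.17, 95% interval 0.30 to 1.01) was a 1.57-fold rise with a limma adjusted p of 0.0114, which was 0.0964 without NC replicate 1 and 0.103 without DZNep replicate 1. Bromosporine libraries were at 2570 and 3005 and OICR libraries at 2805 and 2517, above both NC libraries, with changes of 0.40 and 0.34 and limma adjusted p of 0.196 and 0.505. No library of another group exceeded 2485. MS023 libraries were at 2278 and 1773, on either side of the NC libraries, a change of -0.06. The direct difference between DZNep and MS023, looked at after the values had been seen, was 0.72 (SE 0.17, 95% interval 0.36 to 1.08, limma adjusted p 0.00715), in a comparison where 22.9% of all tested genes passed this threshold.

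Over all 11 groups at once, a moderated F test in limma passed for 2 of the 10 genes, Hspa1a (adjusted p 0.00785) and Dnajb1 (adjusted p 0.0356), while 29.7% of all tested genes passed. For Dnajb1 the adjusted p was over the threshold when any 1 of 8 libraries was left out, at most 0.111 without DZNep replicate 1. The adjusted p of the other 8 genes ranged from 0.168 for Hspa1b to 0.937 for Hspa8. In the order of the group means, each group overlapped with the next for Hspa8, Hsph1, Hsp90aa1, Hspb1 and Bag3. For Hspa1a a gap lay between MS023 and Chaetocin and for Dnajb1 between OICR and IOX1. Such gaps also occurred for Hspa1b, Hspd1 and Hspe1, which did not pass the F test, so a gap does not set the passing genes apart. How common such gaps are among all tested genes was not counted.

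Hspa8 encodes HSC70, the HSP70 protein that cells make without stress (ENSMUSG00000015656, chr9:40800984-40810087, plus strand). It was at 59405 and 75957 in NC and ranged from 36561 in a CPTH2 library to 92251, a value that 6 libraries shared. Only 7 distinct values occurred in the 22 libraries. At this height the common distribution has few steps, so that the values of this gene lay 0.14 to 0.29 log2 units apart. Changes ran from -0.43 with CPTH2 to 0.32 with OICR, each with an SE of 0.42. Snord14c, Snord14d and Snord14e lie within its span, and 61.2% of the 31-base stretches of its longest transcript occur in other genes, with 52.1% in the pseudogene Gm15459.

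Hsph1 encodes HSP110, a relative of HSP70 that exchanges its nucleotide (ENSMUSG00000029657, chr5:149614287-149636376, minus strand). It was at 2971 and 4670 in NC. The MS023 libraries, at 5038 and 4843, lay above both, a change of 0.41 (SE 0.41, limma adjusted p 0.721). With DZNep the libraries were far apart, at 6228 and 4047, and the change of 0.43 came to 1.07 between the libraries numbered 1 and -0.21 between those numbered 2. No 31-base stretch of its longest transcript occurred in another annotated gene.

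Bag3 encodes a nucleotide exchange factor that also links HSP70 clients and small heat shock proteins to autophagy (ENSMUSG00000030847, chr7:128523616-128546981, plus strand). It was at 2417 and 2138 in NC, the group with the highest mean. Each of the 10 compounds gave a lower mean, with changes from -0.02 with CPTH2 to -0.47 with IOX1 (libraries at 1482 and 1811, SE 0.22, limma adjusted p 0.399). None of these passed the test, and since all 10 changes are taken against the same NC libraries, their directions are not independent. As for Hsph1, no 31-base stretch of the longest Bag3 transcript occurred in another annotated gene.

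Hsp90aa1 encodes the stress-inducible form of HSP90, which completes the folding of many kinases and steroid receptors (ENSMUSG00000021270, chr12:110690605-110702728, minus strand). NC had the lowest mean value of the 11 groups on the linear scale, with libraries at 67576 and 31970, while in log2 units CPTH2 was lower (change -0.15). IOX1 and MS023 each had the values 123367 and 75957, a change of 1.06 with an SE of 0.92 and a 95% interval of -0.93 to 3.05. These were the only 2 of the 100 pairs that exceeded 1 log2 unit, and the limma adjusted p were 0.638 and 0.67. In each pair the change was 0.87 between the libraries numbered 1 and 1.25 between those numbered 2. The fit has no term for the number, and with such a term the residual SD of this gene was 0.45 in place of 0.92. The gene took 10 distinct values, and its highest, 123367, occurred in 6 libraries. Its constitutive partner Hsp90ab1 was at 221616, the top of the distribution, in all 22 libraries, so no difference between groups could be seen for it.

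**Figure D2:**
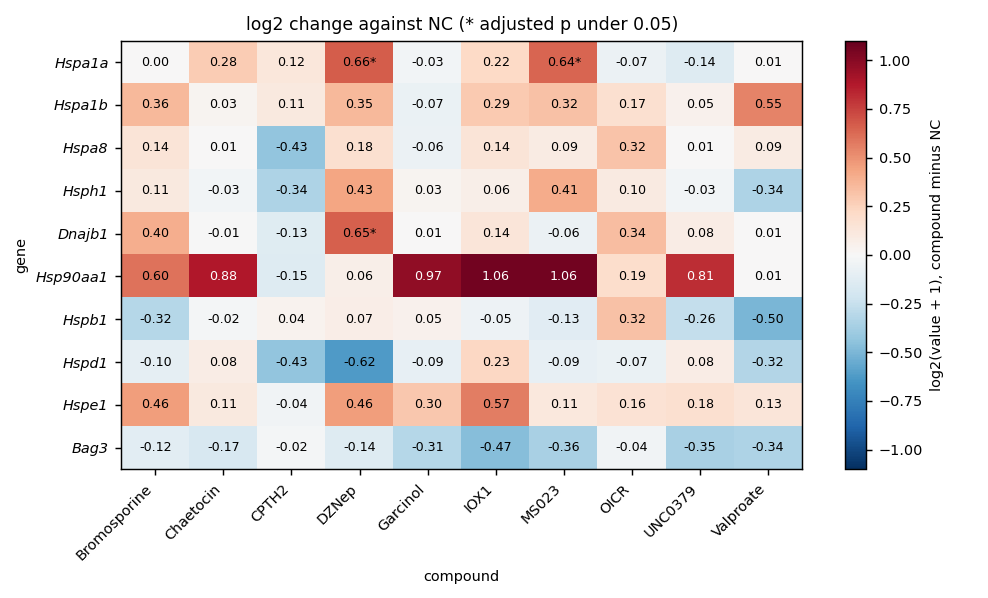
Difference of mean log2(value + 1), compound minus NC, for the 10 genes (vertical) and the 10 compounds (horizontal), with red for higher and blue for lower and an asterisk at a limma adjusted p under 0.05. The 3 asterisks stand at Hspa1a with DZNep (0.66) and MS023 (0.64) and at Dnajb1 with DZNep (0.65), while the larger values of Hsp90aa1 (up to 1.06) carry none.

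Hspb1 encodes HSP25, a small heat shock protein that holds unfolded proteins without using ATP (ENSMUSG00000004951, chr5:135887919-135889563, plus strand). It was at 19758 and 22843 in NC. With Valproate it was at 12535 and 17952, both below the NC libraries, a change of -0.50 (SE 0.25, 95% interval -1.04 to 0.04) with a limma adjusted p of 0.247. The difference was -0.66 between libraries numbered 1 and -0.35 between those numbered 2. The highest library, at 32036, was of OICR, whose other library at 21898 lay between those of NC. Of its 31-base stretches 56.7% recur in the pseudogene Hsp25-ps1, which was at 8 to 56 in this table.

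Hspd1 and Hspe1 encode HSP60 and HSP10, the barrel and the lid of the mitochondrial chaperonin (ENSMUSG00000025980, chr1:55077835-55088243, minus strand, and ENSMUSG00000073676, chr1:55088132-55091307, plus strand). They share the stretch of promoter shown above. Hspd1 was at 29399 and 39193 in NC, with DZNep libraries at 30736 and 15816, a change of -0.62 (SE 0.30, 95% interval -1.26 to 0.02, limma adjusted p 0.153) that came to 0.06 between libraries numbered 1 and -1.31 between those numbered 2. Without DZNep replicate 1 it was -1.10 and called (limma adjusted p 0.0219). Hspe1 was at 11541 and 12149 in NC, with DZNep libraries at 18362 and 14424, a change of 0.46 (SE 0.23, limma adjusted p 0.172). The DZNep libraries thus lay above both NC libraries for Hspe1 and not for Hspd1. The largest difference of Hspe1 was with IOX1, at 19257 and 15958, a change of 0.57 (SE 0.23, limma adjusted p 0.33). Bromosporine libraries, at 15640 and 16883, were 0.46 higher. The exons of Hspd1 and Hspe1 overlap on opposite strands, and 55.8% of the 31-base stretches of Hspd1 and 14.1% of those of Hspe1 occur in other genes. The genes sharing with Hspd1 were all pseudogenes. Most of the Hspe1 share, 12.4%, was with AC117239.2, which is annotated as protein-coding.

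Hsp90aa1 and Hspb1 differed between the 2 libraries of a group in the same direction in every group. How many of all tested genes did the same was not counted. The labels number the libraries of each group 1 and 2 and do not say what the number stands for. In a fit with group and number as terms, the difference between number 2 and number 1 passed the limma adjusted p for 6 of the 10 genes, while 52.6% of all tested genes passed, a like share. With the 2-fold threshold added it was called for 1 gene, Hsp90aa1, against 4.04% of all tested genes. Hsp90aa1 was lower in the library numbered 2 in 11 of 11 groups, with differences from -2.69 to -0.69 log2 units. The mean was 104700 over the libraries numbered 1 and 47480 over those numbered 2, a difference of -1.27 (SE 0.19, 95% interval -1.68 to -0.86, limma adjusted p 0.00018) or 2.41-fold. This exceeds the spread of its 11 group means, whose SD was 0.48.

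The other 5 genes moved by less. Hspb1 was higher in number 2 in 11 of 11 groups, by 0.35 on average (SE 0.05, limma adjusted p 6.9e-05). Hspa8 was 0.46 higher in number 2 (8 of 11 groups, limma adjusted p 0.00914), Hsph1 0.39 higher (8 of 11 groups, limma adjusted p 0.0291) and Bag3 0.24 higher (9 of 11 groups, limma adjusted p 0.007). Hspe1 was 0.23 lower (8 of 11 groups, limma adjusted p 0.0227). For Hspa1a, Hspa1b, Dnajb1 and Hspd1 the differences were between -0.03 and 0.12 and did not pass. Within the numbers, the change of Hspa1a with DZNep was 0.68 and 0.65, that of Hspa1a with MS023 0.80 and 0.48, and that of Dnajb1 with DZNep 0.90 and 0.40.

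**Figure D3:**
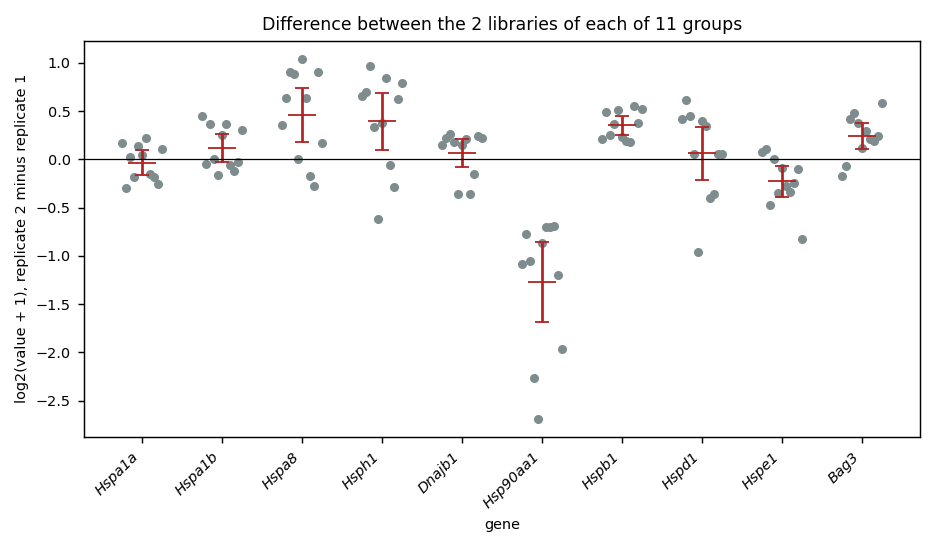
Difference in log2(value + 1) between the 2 libraries of a group, number 2 minus number 1, with 1 grey point for each of the 11 groups and the mean with its 95% interval from limma in red. All 11 points of Hsp90aa1 lie below 0 and all 11 of Hspb1 above it, while the points of Hspa1a and Hspa1b spread on both sides of 0.

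Correlations of the genes with each other across the groups ran in both directions. The correlation of the 11 group means of log2(value + 1) had a median Pearson r of 0.145 over the 45 pairs of genes. In this median positive and negative values offset each other, so it does not measure strength. The points share the replicate numbers and the common distribution, and r is given as a description. Hspa1a and Hspa1b had an r of 0.34 (Spearman rho 0.40), which fell to 0.04 without the 2 groups farthest from the median of Hspa1a. In each pair below, the 2 groups left out were likewise those farthest from the median of the gene named first. Hspd1 and Hspe1 had an r of 0.09 (rho 0.08). The highest r was 0.68, of Hsp90aa1 and Hspd1 (rho 0.54), and 0.75 without 2 groups. For this pair r was 0.19 within the libraries numbered 1 and 0.70 within those numbered 2. Dnajb1 and Hspe1 followed at 0.67 (rho 0.85) and at 0.43 without 2 groups. Hspa1a and Hsph1 had 0.66 (rho 0.35), which fell to -0.12 without 2 groups. Hspa8 and Dnajb1 stood at 0.64 (rho 0.75) and at 0.68 without 2 groups. Hsp90aa1 and Bag3 ran in opposite directions, with an r of -0.70 (rho -0.78) and of -0.54 without 2 groups. It was -0.71 within the libraries numbered 1 and -0.77 within those numbered 2.

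Among 12855 other tested genes with a mean of at least 100, the pattern most like that of Bag3 over the 11 group means was that of Ski (r 0.973), for Hsp90aa1 that of Glmn (r 0.967), for Dnajb1 that of Adck5 (r 0.969), for Hspa1b that of Grb2 (r 0.95), for Hspe1 that of Txn1 (r 0.925) and for Hspa1a that of Pkhd1l1 (r 0.908). These were the best of many genes over 11 points.

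Other genes of the heat shock network were taken as a list of 69 genes in 11 classes, of which 67 were tested. Of their 670 pairs with a compound 12 were called, 5 higher and 7 lower, in 8 genes, or 1.79% against the 2.15% of all genes. The factors that control the response showed no call. Hsf1 ranged from 918 to 1558 and Hsf2 from 1212 to 1973 over the 22 libraries. Hsf1 fell from 1407 and 1306 in NC to 918 and 1043 with Valproate, by less than 2-fold (change -0.47, SE 0.10, limma adjusted p 0.0105), chosen for mention after its values had been seen. The fall was not particular to Valproate. IOX1 libraries were at 1002 and 951 (change -0.47, limma adjusted p 0.0905), and the change with MS023 was -0.31 (limma adjusted p 0.155). Changes were above 0 with Bromosporine (0.10), CPTH2 (0.06) and OICR (0.04). The 10 HSP90 co-chaperones, the 7 HSP70 co-chaperones, the 8 subunits of the chaperonin TRiC, the 6 of prefoldin and the 8 mitochondrial chaperones had 0 called pairs each.

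The 12 calls fell in 4 of the classes: the HSP70 family, the HSP40 family, the small heat shock proteins and the other genes linked to HSF1. Cryab, a small heat shock protein of lens and muscle, rose from 54 and 101 in NC to 820 and 692 with DZNep, a change of 3.33 (SE 0.37, limma adjusted p 4.46e-05). In that comparison 11.4% of all tested genes were called. Hspb6, another small heat shock protein of muscle, was at 446 and 386 in NC. DZNep libraries held 179 and 148 (change -1.34, limma adjusted p 0.00963) and Valproate libraries 206 and 93 (change -1.58, limma adjusted p 0.00853), where 5.28% of all tested genes were called. Without NC replicate 1 both differences missed the threshold (limma adjusted p 0.0779 and 0.0693), and so did that with DZNep without DZNep replicate 2 (0.0536) and that with Valproate without Valproate replicate 2 (0.0697). Hspa4l, a relative of HSP110 that is abundant in testis, rose with Valproate from 122 and 155 to 347 and 341, by 1.32 (SE 0.25, limma adjusted p 0.0053, and 0.0596 without NC replicate 1).

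Serpinh1, the collagen chaperone HSP47 of the endoplasmic reticulum, had 4 of the 7 lower calls. Its change was -2.26 with Bromosporine, in a comparison with 3.34% of tested genes called, and -3.44 with OICR, with 0.388% called. It was -1.71 with DZNep and -2.03 with Valproate. Measured against the average of all other groups in place of NC, Serpinh1 was lower by less, at -1.33 with Bromosporine, -2.63 with OICR, -1.08 with Valproate and -0.72 with DZNep, the last not called, and the change of Hspb6 with DZNep came to -0.98, also not called. The other 4 calls, outside the rule for named genes, were higher values of Zfand2a (1.15) and Dnajb5 (1.11) with DZNep and of Ier5 (1.23) with Valproate, and a lower value of Hspa1l (-1.33) with Valproate. Hspa1l shares 12.1% of the 31-base stretches of Hspa1a, so its reads are uncertain too.

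**Figure D4:**
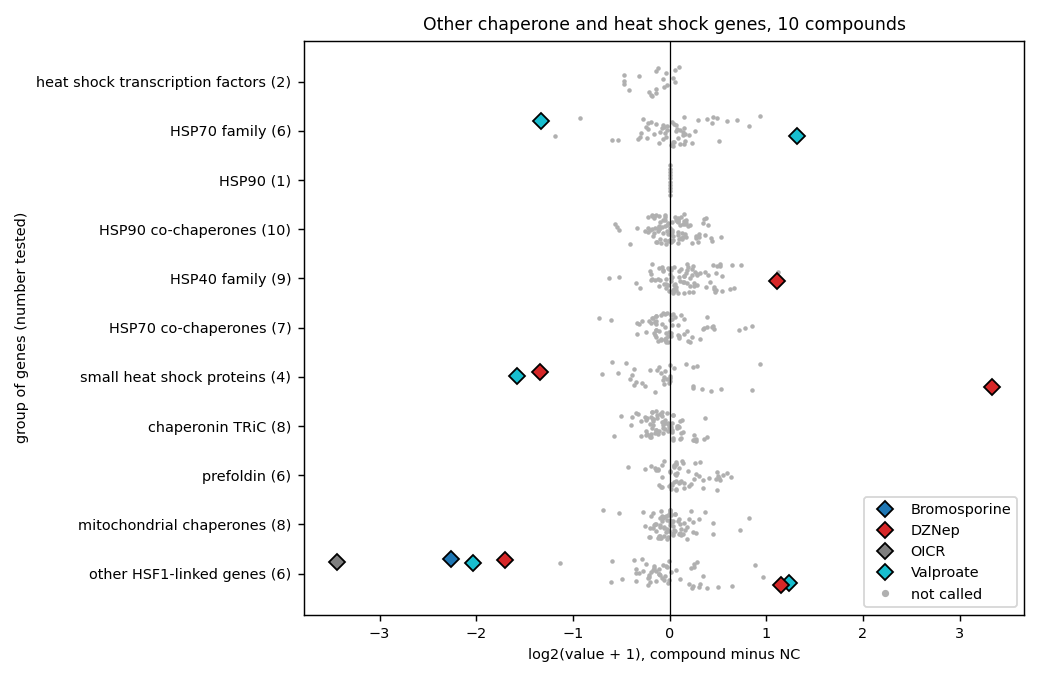
Difference of mean log2(value + 1), compound minus NC, for the 67 tested genes of the heat shock network, grouped in 11 classes (number tested in brackets), with 1 grey point for each gene and compound and coloured diamonds for the 12 called pairs. The points gather around 0, with Serpinh1 at the far left (-3.44 with OICR) and Cryab at the far right (3.33 with DZNep).

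The median change of the 67 genes lay between -0.05 with Chaetocin and 0.03 with IOX1, beside medians of all tested genes of -0.04 to 0.01. For the 10 heat shock genes followed here the median was highest with DZNep, at 0.27 with 8 of 10 genes higher, and lowest with CPTH2, at -0.08 with 3 of 10 higher. With IOX1 8 of 10 were also higher (median 0.18), and with Bromosporine and with OICR 7 of 10. These counts are a description without a test.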

How the data were processed

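RNA of 22 libraries was analysed, in groups and numbers taken from the labels. The deposited values are scores, normalized read counts that the authors rounded to whole numbers. Per the submitters' processing notes and the study's methods, reads were aligned to mm10 with Bowtie2 2.2.5, counted with RSEM and normalized with EDASeq. The full-quantile form of that step fixes the distribution of each library, can hide a shift shared by most genes and leaves few steps at the top. A table of the authors' group means was not used, and 0 columns were unmatched.

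Values were analysed as log2(value + 1) in limma 3.58.1 (R 4.3.3), for genes with at least 10 in at least 2 libraries. One fit held 11 group means (11 residual degrees of freedom, eBayes with trend). P-values are two-sided and were adjusted by Benjamini-Hochberg over all tested genes within each comparison. A call needed an adjusted p under 0.05 and a fold over 2. The direct comparison of DZNep and MS023 and the sum of Hspa1a and Hspa1b were chosen after seeing the data. The members and lists were chosen with earlier results of these data known. All 10 members were named. Of the list, up to 3 called genes per compound with the largest change and a group mean of at least 100 were named. For likeness, the 2 genes with the highest r were taken for each member. The fit was tested on simulated data. Gene positions, shared 31-base stretches and exons came from GENCODE M21 (mm10), promoters from RefSeq (GRCm38.p6), with at most 30 bases printed where they touch an untranslated region.

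Alternatives were a pseudocount of 10, no filter, separate fits of each compound with NC, a replicate block, median-ratio rescaling, the mean of the other 10 groups as reference, adjustment over all 10 contrasts, and each library left out in turn.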

Additional observations from a re-analysis of the deposited data

How the results depend on the processing

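With 2 libraries per group, limits come mainly from the spread between libraries. The count of called pairs of a heat shock gene and a compound was 0 under every alternative other than leaving out a library, where it ranged from 0 to 1. The 1 was Hspd1 with DZNep without DZNep replicate 1 (change -1.10, limma adjusted p 0.0219). The genes passing the F test ranged from 1 to 2 when a library was left out, since Dnajb1 was lost in 8 of 22 cases (adjusted p 0.0284 to 0.111). With each compound fitted alone with NC, called pairs of the list numbered 1 (Cryab with DZNep) in place of 12, and the limma adjusted p was 0.15 for Hspa1a and 0.127 for Dnajb1 with DZNep and 0.289 for Hspa1a with MS023. Adjustment over all 10 contrasts gave 0.0513 for Dnajb1 with DZNep, and no filter gave 0.0505 for Hspa1a with MS023. Median-ratio rescaling gave 0.0413 for Hspa1b with Valproate. Deviations from the group means correlated between libraries of the same number above 0.1 in 51 of 55 pairs of groups (lowest 0.0535, median 0.196), and above 0 in all. This is a hint in the data that the number marks something shared. The numbers were not treated as pairs, because the labels do not say so and the rule used asked for a correlation over 0.1 in every pair. With the replicate block, 5 pairs of a heat shock gene and a compound passed the adjusted p alone in place of 3, Hspb1 (limma adjusted p 0.00465) and Hspa1b (0.0213) with Valproate being added, and Hspb1 passed the F test (adjusted p 0.00153), as did 65.9% of all tested genes. No direction reversed among the results and alternatives computed. The depth of each library is unknown, and reads of Hspa1a, Hspa1b, Hspa8, Hsp90aa1, Hspb1 and Hspd1 may be shared with near copies.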
